A study of Homo sapiens with 12 samples.

Results

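The genes described here encode the nuclear subunits of the mitochondrial respiratory chain and ATP synthase. They were taken by symbol: names beginning with NDUFA, NDUFB, NDUFC, NDUFS, NDUFV, UQCR, COX4 to COX8 or ATP5, together with SDHA, SDHB, SDHC and SDHD, without pseudogenes, present in all 3 deposited tables and at 1 FPKM or above in the vehicle library of each. FPKM counts fragments scaled to transcript length and library size. In all, 90 of the 10422 genes that passed the same floor were members, and 77 of them are structural subunits: 37 of complex I, 4 of complex II, 8 of complex III, 11 of complex IV and 17 of complex V. The other 13 matched by name only. They were the 8 complex I assembly factors NDUFAF1 to NDUFAF8 and 5 others, namely ATP5S, ATP5SL, the ATP synthase inhibitor ATPIF1, COX7A2L and the readthrough locus NDUFC2-KCTD14. NDUFA4, which keeps a complex I name but is a cytochrome c oxidase subunit, was counted with complex IV.

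RNA-seq was performed on 2 human triple-negative breast cancer (TNBC) cell lines, HCC70 and MDA-MB468, grown in culture and treated for 24 h. The labels list insulin in the MDA-MB468 medium, and the study's methods do not. Each line received vehicle, 1.25 or 2.5 µM XY018, 1.25 µM atorvastatin (ATV), or 1.25 µM XY018 together with 1.25 µM ATV. In a separate experiment MDA-MB468 cells received vehicle or 2.5 µM GSK805. XY018 and GSK805 are antagonists of the nuclear receptor RORγ, and ATV is a statin, an inhibitor of the rate-limiting enzyme of cholesterol synthesis. Each of the 12 conditions had 1 library, so no test between conditions was possible and no p-value is given.

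Oxidative phosphorylation runs in the inner mitochondrial membrane. Complex I (NADH dehydrogenase) and complex II (succinate dehydrogenase) pass electrons to coenzyme Q, complex III (the cytochrome bc1 complex) passes them on to cytochrome c, and complex IV (cytochrome c oxidase) hands them to oxygen. Complexes I, III and IV pump protons, and complex V (ATP synthase) uses the gradient to make ATP. Complexes I, III, IV and V combine nuclear-encoded subunits with a few made from mitochondrial DNA, whereas complex II is encoded wholly in the nucleus.

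Depth, estimated from the spacing of low FPKM values, was 9160000 to 10020000 fragments in the HCC70 libraries, 17810000 to 19710000 in the MDA-MB468 libraries with vehicle, XY018 or ATV, and 8380000 and 8680000 in the 2 libraries of the GSK805 experiment. The epithelial genes KRT8, KRT18 and EPCAM were present in all libraries. Of 7 epithelial and basal markers (KRT5, KRT14, KRT17, KRT8, KRT18, EPCAM and EGFR), 5 lay below vehicle in HCC70 with 2.5 µM XY018, 7 in MDA-MB468 with the same dose and 6 with GSK805, and 2, 4 and 4 of them passed 1.5-fold. Of all genes, 54.8%, 50.9% and 51.8% lay below vehicle there, and 2.35%, 13.4% and 11.1% were 1.5-fold lower. KRT8 had log2 ratios of -0.97 and -1.2 in MDA-MB468 with XY018 and GSK805, and KRT14 had -3.10 and -0.80. The summed level of the 7 ran from 1019 to 1723 FPKM in HCC70, from 1826 to 2861 in MDA-MB468 with vehicle, XY018 or ATV, and was 2868 and 2026 without and with GSK805. Their part in the subunits' ratios was not tested. The estrogen receptor gene ESR1 was at 0.56, 0.48 and 1.77 FPKM in the 3 vehicle libraries and at 5.67 FPKM with GSK805. Values are given relative to the vehicle library of the same table, as a log2 ratio of FPKM after 0.1 was added to both, which understates changes of low genes. A gene was counted as higher or lower when the ratio passed 1.5-fold (0.58 on the log2 scale). Where an interval is given, it is a 95% Clopper-Pearson interval for the estimated fragments of the libraries compared. It covers counting error only and not the spread between cultures. In whole cultures, a lower share of a message may come from fewer cells that express it or from less RNA per cell, and these cannot be told apart.

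The subunits were among the more abundant messages of both lines. The median member was at 55.6 FPKM in HCC70 vehicle, 69.3 in MDA-MB468 vehicle and 166 in the vehicle of the GSK805 experiment, against 12.4, 13.2 and 19.9 for all genes. The most abundant subunit was UQCRH, the hinge protein of complex III, at 321 FPKM in HCC70 vehicle. In MDA-MB468 vehicle it was COX6B1, a complex IV subunit on the intermembrane side, at 438 FPKM, and in the GSK805 experiment it was COX4I1, the largest nuclear-encoded complex IV subunit, at 808 FPKM. The lowest subunit of both XY018 vehicle libraries was NDUFA5, at 6.45 FPKM in HCC70 and 4.35 in MDA-MB468. With each line represented by 1 vehicle library in tables normalized separately, the median log2 ratio of MDA-MB468 to HCC70 was 0.42 for the 77 subunits and 0.10 for all genes. It was 0.69 for complex IV, 0.50 for complex V, 0.42 for complex I, -0.26 for complex III and -0.62 for complex II. By this median, complexes II and III were higher in HCC70 and the other complexes in MDA-MB468. For complex III the summed level went the other way, at 718 FPKM in HCC70 vehicle and 744 in MDA-MB468 vehicle.

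Subunit messages tended to be lower after every treatment, by amounts that depended on line and compound. The median log2 ratio of the 90 members was -0.13 in HCC70 with 2.5 µM XY018, -0.24 in MDA-MB468 with the same dose and -0.43 in MDA-MB468 with GSK805. Expressed in percent, these median differences were -8.61%, -15.3% and -25.7%. The medians of all 10422 genes in the same comparisons were -0.02, -0.01 and -0.02. With the median of genes of like transcript length subtracted, the HCC70 median was -0.057 at 2.5 µM XY018 and -0.0064 at 1.25 µM. The 3 comparisons share no control library. In all 3 of them 60 of the 90 members lay below their vehicle, against 20.7% of all genes.

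Few members passed 1.5-fold in HCC70. With 2.5 µM XY018 the count was 2 lower, against 2.35% of all genes, and with 1.25 µM it was 1, against 1.93%. In MDA-MB468, 13 members were lower with 2.5 µM XY018 and 7 with 1.25 µM, where 13.4% and 7.3% of all genes were lower. These counts were near the background, and the members differed from other genes there in direction rather than in how many passed 1.5-fold. With GSK805, 25 of the 90 members were lower, against 11.1% of all genes. Once the median of genes of like transcript length was subtracted, that count was 13 of 90 and the member median was -0.28. The share of all genes after the same subtraction was not counted. Before it, 18 of 55 subunits at or under 1164 nt were 1.5-fold lower, against 14.9% of the other 985 genes of that length. No member was 1.5-fold higher in any of the 9 comparisons with vehicle. The shares of all genes that were higher there were, in HCC70, 0.979% and 1.39% with 1.25 and 2.5 µM XY018, 1.2% with ATV and 2.65% with the combination, and in MDA-MB468 7.8%, 11.7%, 0.691% and 10.4% in the same order and 9.89% with GSK805. In HCC70, 79 members lay below vehicle with 2.5 µM XY018, against 54.8% of all genes. In MDA-MB468, 75 members lay below vehicle with 2.5 µM XY018 and 78 with GSK805, against 50.9% and 51.8% of all genes.

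**Figure D1:**
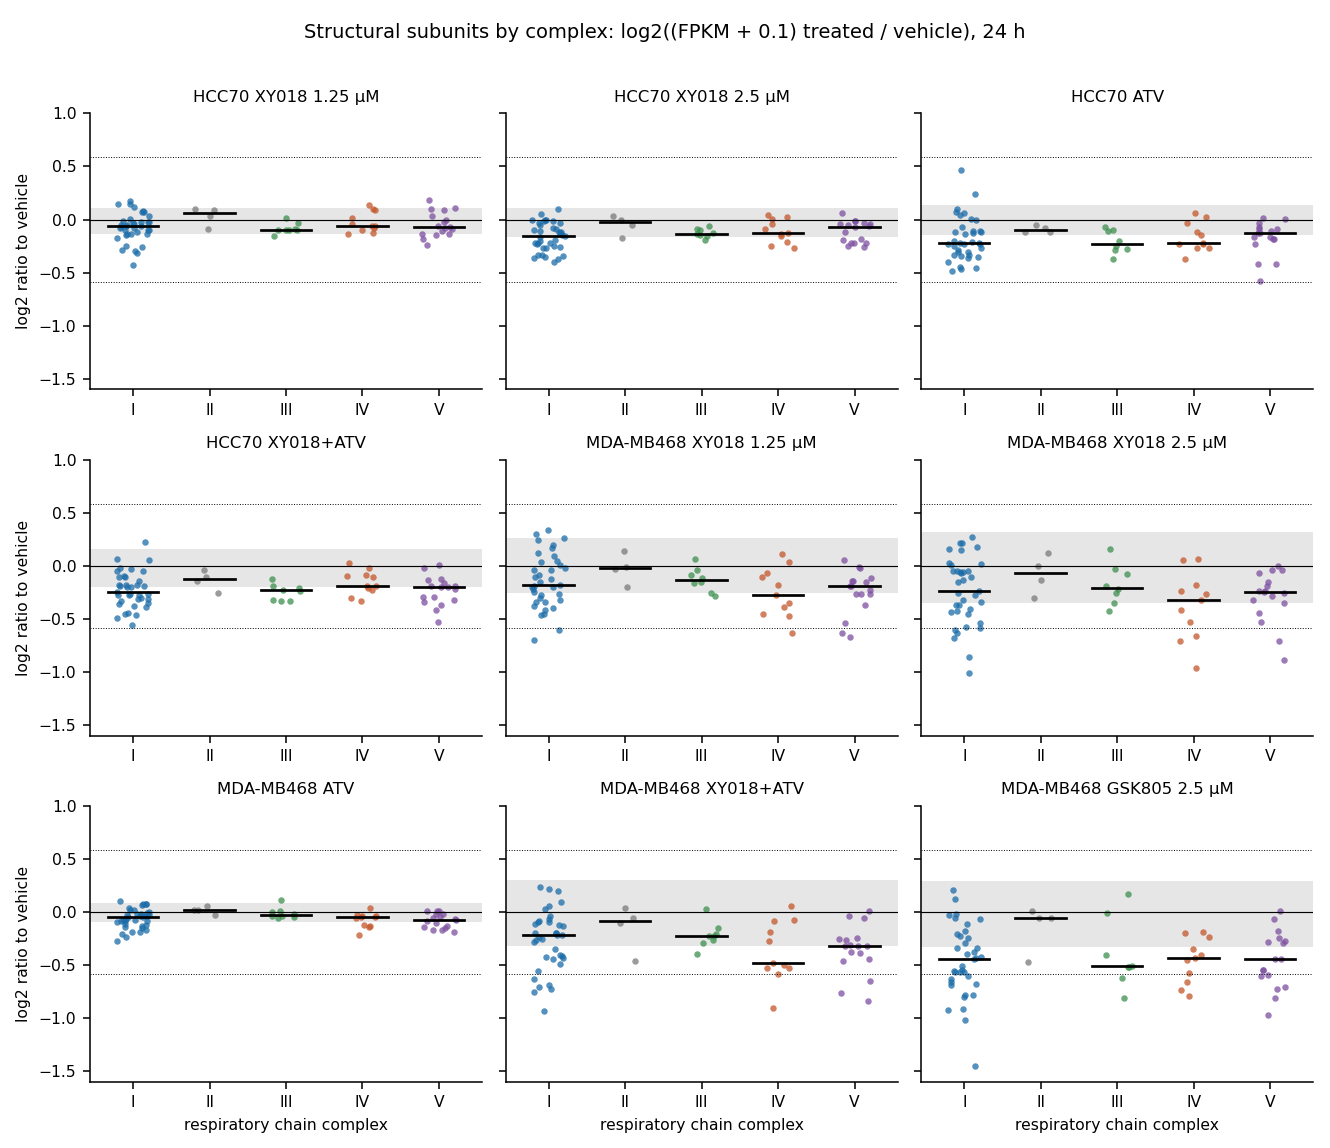
Log2 ratio of FPKM to vehicle (y axis, 0.1 added) of the 77 structural subunits by complex (x axis, I to V) in the 9 comparisons with vehicle. Points are genes, black bars are the median of a complex, the grey band is the interquartile range of all 10422 genes and dotted lines mark 1.5-fold. The bars of complexes I, III, IV and V lie below 0 in all panels, and with GSK805 they run from -0.51 to -0.44, while the bar of complex II is -0.06 there.

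By complex, MDA-MB468 cells at 2.5 µM XY018 had a median log2 ratio of -0.24 for complex I, -0.07 for complex II, -0.21 for complex III, -0.33 for complex IV and -0.25 for complex V. With GSK805 the medians were -0.45, -0.06, -0.51, -0.44 and -0.44. In HCC70 at 2.5 µM XY018 they were -0.15, -0.03, -0.13, -0.13 and -0.07. Complex II, with 4 genes, had the median nearest to 0 in each of these 3 comparisons. The counts of subunits lower by 1.5-fold in MDA-MB468, first with XY018 and then with GSK805, were 6 and 12 of 37 for complex I, 0 and 2 of 8 for complex III, 3 and 3 of 11 for complex IV and 2 and 6 of 17 for complex V, where 13.4% and 11.1% of all genes were lower. With XY018 the counts of complexes I and V were near that background. No structural subunit was 1.5-fold lower in HCC70 with XY018, against 1.93% and 2.35% of all genes with 1.25 and 2.5 µM.

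**Figure D2:**
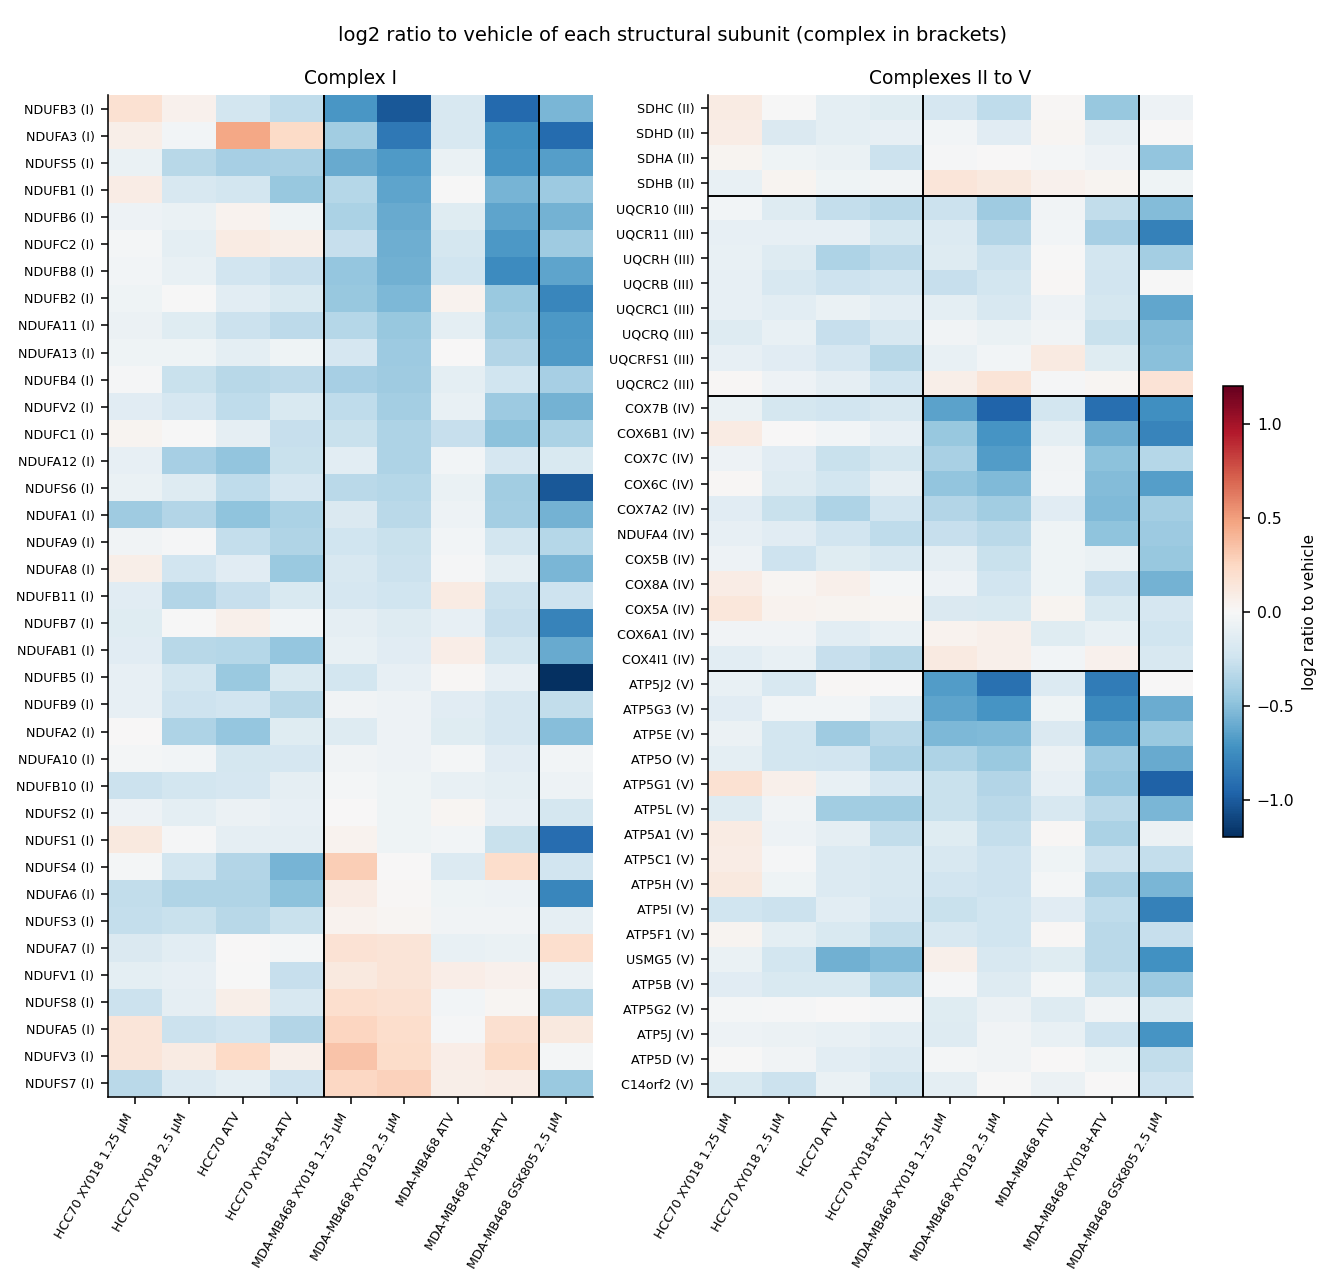
Log2 ratio of FPKM to vehicle (colour, blue for lower and red for higher than vehicle) of each of the 77 structural subunits (y axis, by complex) in the 9 comparisons with vehicle (x axis). Blue shades fill most of the MDA-MB468 columns with XY018, alone or with ATV, and with GSK805, with NDUFB3 at -1.01 and NDUFB5 at -1.45 the lowest in XY018 2.5 µM and GSK805, and the ATV column is the palest of MDA-MB468.

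Complex I had the lowest subunit of each MDA-MB468 antagonist comparison. NDUFB3 (chr2:201936156-201950473, plus strand, GRCh37), an accessory subunit of the membrane arm, was at 36.1 FPKM in MDA-MB468 vehicle, 22.1 with 1.25 µM XY018, 17.8 with 2.5 µM, 31.5 with ATV and 18.8 with both compounds. Its log2 ratio at 2.5 µM was -1.01 (interval -1.30 to -0.75). The libraries with XY018, which differ in dose and in ATV and are not replicates, lay below those without it. How many of all genes were ordered in this way was not counted. In the GSK805 experiment NDUFB3 was at 61.3 FPKM in vehicle and 41.9 with GSK805 (log2 ratio -0.55, interval -0.88 to -0.21). In HCC70 it was at 33, 37.4, 34.1, 28.4 and 26.8 FPKM in vehicle, 1.25 and 2.5 µM XY018, ATV and the combination. There the 2 lowest libraries were those with ATV, and with 2.5 µM XY018 the interval included 0 (-0.27 to 0.36).

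NDUFA3 (chr19:54606036-54612564, plus strand), another accessory subunit, had ratios of opposite sign in the 2 lines with ATV, alone or combined. In MDA-MB468 it was at 109 FPKM in vehicle, 81.8 and 60.2 with 1.25 and 2.5 µM XY018, 95.5 with ATV and 65.8 with the combination, and it was at 219 FPKM in the vehicle and 116 in the GSK805 library of the other experiment. The log2 ratio was -0.86 with 2.5 µM XY018 (interval -0.98 to -0.73) and -0.92 with GSK805 (interval -1.07 to -0.78). In HCC70 the same 5 conditions gave 53.8, 56.7, 52.4, 74.2 and 62.9 FPKM. ATV alone gave the highest value there, with a log2 ratio of 0.46 (interval 0.28 to 0.65), the highest of all members in that comparison.

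NDUFS5 (chr1:39491990-39500308, plus strand), an accessory subunit, was at 408 FPKM in MDA-MB468 vehicle, 269 and 255 with 1.25 and 2.5 µM XY018, 386 with ATV and 249.9 with the combination. It was at 656 FPKM without and 415 with GSK805. The log2 ratios were -0.68 and -0.66 with 2.5 µM XY018 and GSK805. In HCC70, NDUFS5 was at 173, 164, 138, 132 and 132 FPKM in vehicle, 1.25 and 2.5 µM XY018, ATV and the combination, so all 4 treated libraries were below vehicle, with a log2 ratio of -0.33 at 2.5 µM XY018 (interval -0.49 to -0.18). NDUFA1, a small membrane-arm subunit, was the lowest complex I subunit of HCC70 with 1.25 µM XY018 and with ATV, at log2 ratios of -0.43 and -0.48. It was at 66.3 FPKM in HCC70 vehicle and between 47.5 and 52.1 in the 4 treated libraries. NDUFA12 was lowest with 2.5 µM XY018 (39.2 to 29.8 FPKM, -0.40) and NDUFS4 with the combination (14.5 to 9.86 FPKM, -0.56).

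GSK805 and XY018 differed most at NDUFB5, an accessory subunit of the membrane arm on chromosome 3. It was at 147 FPKM in the vehicle of the GSK805 experiment and 53.5 with GSK805, a log2 ratio of -1.45 and the lowest of all members. In the XY018 experiment in the same line it was at 27.1 FPKM in vehicle, 23.2 and 25.2 with 1.25 and 2.5 µM XY018, 27.3 with ATV and 25.3 with the combination, and the log2 ratio at 2.5 µM was -0.10. NDUFS6, an accessory subunit, was at 527 FPKM without and 261 with GSK805 (-1.01), and at 219 FPKM in vehicle and 173 with 2.5 µM XY018 (-0.34). NDUFS1, the largest core subunit, was at 54.8 and 29.0 FPKM without and with GSK805 (-0.92), and at 23.6 and 22.8 without and with 2.5 µM XY018 (-0.05). Each of these 3 genes had a lower ratio with GSK805 than with XY018 at the same dose and time. The 2 experiments used different annotations. Between their vehicles NDUFB5 differed by a log2 ratio of 2.43, against a median of 0.53 for all genes, and the part of this in its ratios was not tested.

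The 7 nuclear core subunits of complex I carry its flavin and iron-sulfur centres. Grouped apart from the 30 accessory subunits, a split made after the values were seen, they had a median log2 ratio of 0.03 in MDA-MB468 at 2.5 µM XY018, against -0.30 for the accessory subunits. With GSK805 the 2 medians were -0.34 and -0.53, and in HCC70 at 2.5 µM XY018 they were -0.11 and -0.17. NDUFV1, the flavoprotein that takes electrons from NADH, was at 171, 185, 190.3, 180.2 and 177 FPKM in MDA-MB468 with vehicle, 1.25 and 2.5 µM XY018, ATV and the combination. All treated libraries were thus above vehicle, with a log2 ratio of 0.16 at 2.5 µM (interval 0.10 to 0.21), whereas GSK805 gave 500.3 against 525 FPKM (-0.07). NDUFS7, an iron-sulfur subunit near the quinone site, was at 70.4 FPKM in MDA-MB468 vehicle and 85.1 with 2.5 µM XY018 (0.27), the highest complex I ratio of that comparison, but at 92.6 and 67.8 FPKM without and with GSK805 (-0.45). NDUFS8 had log2 ratios of 0.18 and -0.34 in the same comparisons. NDUFV2, the iron-sulfur partner of NDUFV1, lay below vehicle in both, at -0.40 and -0.56, and was the lowest core subunit with XY018. The highest complex I subunit was NDUFV3, a flavoprotein-fraction accessory subunit, in HCC70 at 2.5 µM XY018 (0.10) and in MDA-MB468 at 1.25 µM (0.34) and with the combination (0.23). With GSK805 it was NDUFA7 (0.20), and with ATV in MDA-MB468 the subunits ran from NDUFC1 at -0.27 to NDUFB11 at 0.10.

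Complex II messages lay nearest to vehicle. SDHA, the flavoprotein subunit, was at 98.3, 97.6, 98.4, 96.4 and 94.2 FPKM in the 5 MDA-MB468 libraries with vehicle, 1.25 and 2.5 µM XY018, ATV and the combination, and at 173 and 125 FPKM without and with GSK805 (-0.47). With GSK805 it was the lowest of the 4 genes, the others lying between -0.06 and 0.01. SDHB, the iron-sulfur subunit, had log2 ratios of 0.03, 0.12 and -0.06 in HCC70 at 2.5 µM XY018, MDA-MB468 at 2.5 µM XY018 and MDA-MB468 with GSK805. For the membrane anchor SDHC they were -0.01, -0.31 and -0.06, and for the anchor SDHD -0.17, -0.13 and 0.01. SDHC was at 26.5 FPKM in MDA-MB468 vehicle, 21.4 with 2.5 µM XY018 and 19.2 with the combination, the lowest complex II value of that table.

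In complex III, UQCRH was at 283 FPKM in MDA-MB468 vehicle, 254 and 237 with 1.25 and 2.5 µM XY018, 282 with ATV and 242 with the combination, and at 548 and 413 without and with GSK805. In HCC70 the order differed, with 321 FPKM in vehicle, 302 and 289.5 with XY018, and the 2 lowest values, 249 and 258, with ATV and the combination. UQCR11, a small subunit, was lowest with GSK805, at 168 FPKM without and 95.9 with the compound (-0.81), and had a log2 ratio of -0.35 with 2.5 µM XY018. UQCRC1, a core protein of the complex, was at 246 and 159.6 FPKM without and with GSK805 (-0.62). The other core protein, UQCRC2, was the highest complex III subunit in both MDA-MB468 antagonist comparisons. It was at 52.3, 54.7 and 58.3 FPKM with vehicle, 1.25 and 2.5 µM XY018 (0.16, interval 0.07 to 0.25) and at 109.9 and 123 without and with GSK805 (0.17, interval 0.07 to 0.26), so the 2 core proteins of the same complex differed in direction. The small subunit UQCRQ was lowest in HCC70 at 1.25 µM XY018 (-0.16), and UQCRB at 2.5 µM (-0.19) and in MDA-MB468 at 1.25 µM (-0.28). UQCR10 was lowest in MDA-MB468 at 2.5 µM (-0.42). UQCRFS1, the Rieske iron-sulfur protein, was lowest in HCC70 with the combination (-0.33) and highest in MDA-MB468 with ATV (0.11).

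In complex IV the lowest gene of MDA-MB468 with XY018 was COX7B (chrX:77154937-77162873, plus strand), a small subunit that spans the membrane. In MDA-MB468 it was at 216 FPKM in vehicle, 139 and 111 with 1.25 and 2.5 µM XY018, 186 with ATV and 116 with the combination, a log2 ratio of -0.96 at 2.5 µM. It was at 172 FPKM without and 104 with GSK805 (-0.73). All 4 treated HCC70 libraries, at 157 to 175 FPKM, were below the vehicle at 184, with a log2 ratio of -0.22 at 2.5 µM XY018. COX6B1 (chr19:36139225-36149684, plus strand), lowest with GSK805, was at 438, 318, 268, 403 and 292 FPKM in the same order of MDA-MB468 libraries and at 745 and 429 without and with GSK805. Its log2 ratios were -0.71 (interval -0.79 to -0.63) and -0.80 (interval -0.91 to -0.69). In HCC70, COX6B1 was at 210.2 FPKM in vehicle and between 196 and 225 in the treated libraries, on both sides of vehicle. COX7C had log2 ratios of -0.67 with 2.5 µM XY018 and -0.35 with GSK805 in MDA-MB468. COX4I1 was the highest complex IV subunit in both, at 0.06 and -0.19. In HCC70 the lowest was COX7A2, at -0.14 and -0.27 with 1.25 and 2.5 µM XY018, and the highest COX5A, at 0.14 and 0.04.

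**Figure D3:**
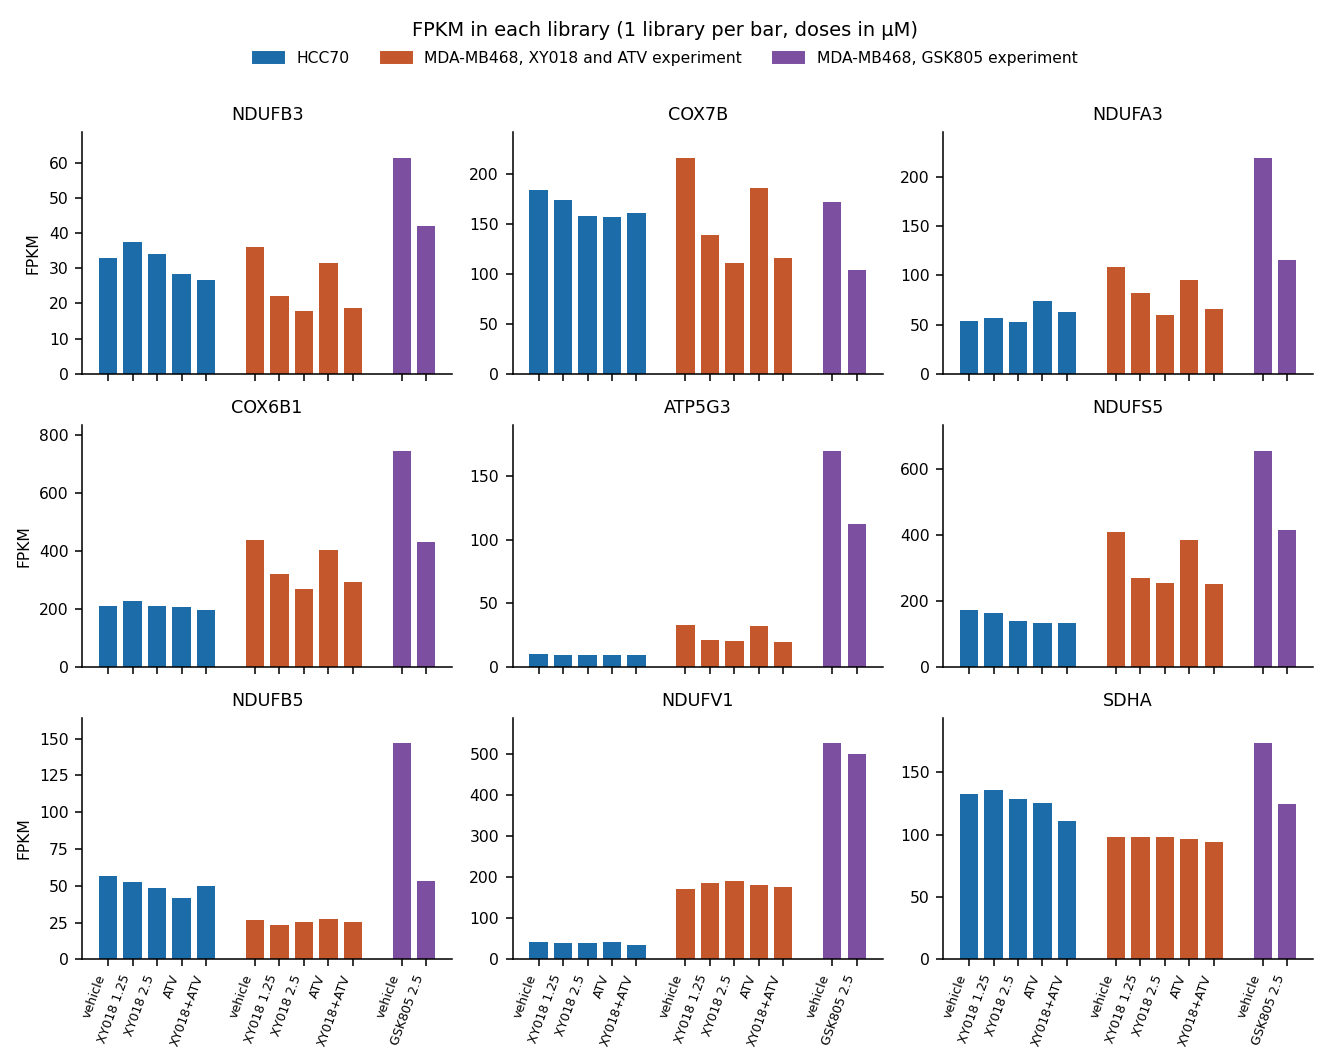
FPKM (y axis, from 0, not comparable between tables) in each of the 12 libraries (bars, 1 library each, no error bars) for NDUFB3, COX7B, NDUFA3, COX6B1, ATP5G3, NDUFS5, NDUFB5, NDUFV1 and SDHA. In MDA-MB468, COX7B stands at 111 with 2.5 µM XY018 against 216 in vehicle, NDUFB5 at 53.5 with GSK805 against 147, and SDHA between 94.2 and 98.4 in the 5 libraries with vehicle, XY018 or ATV.

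In complex V, 3 genes encode the identical mature c subunit of the rotor ring, and they differed. ATP5G3 (chr2:176040986-176046438, minus strand) was at 33.1 FPKM in MDA-MB468 vehicle, 21.3 and 20.2 with 1.25 and 2.5 µM XY018, 31.9 with ATV and 19.5 with the combination, and at 169.9 and 113 without and with GSK805. Its log2 ratios were -0.71 (interval -0.92 to -0.50) and -0.59 (interval -0.74 to -0.45). For ATP5G1 the ratios were -0.35 and -0.97, with 111 FPKM without and 56.5 with GSK805, and for ATP5G2, the most abundant of the 3 in HCC70 and MDA-MB468 vehicle at 122 and 118 FPKM, they were -0.07 and -0.18. In HCC70 at 2.5 µM XY018 the ratios of ATP5G1, ATP5G2 and ATP5G3 were 0.06, -0.02 and -0.03.

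ATP5J2, a subunit of the membrane part, was lowest of complex V in MDA-MB468 with XY018 and highest there with GSK805. It was at 229.7 FPKM in MDA-MB468 vehicle, 144 and 124 with 1.25 and 2.5 µM XY018, 205 with ATV and 129 with the combination (-0.89 at 2.5 µM, interval -1.03 to -0.75), and at 515 and 517 FPKM without and with GSK805 (0.01, interval -0.17 to 0.18). ATP5J2 shares exons with the readthrough locus ATP5J2-PTCD1. That locus was at 1.05, 2.17 and 0.56 FPKM in MDA-MB468 with vehicle, 1.25 and 2.5 µM XY018. It was at 2.26e-41 and 1.86 FPKM without and with GSK805. Whether the 2 annotations used divide the reads of the 2 loci differently was not tested. The 5 subunits of the catalytic F1 head had median log2 ratios of -0.06 in HCC70 at 2.5 µM XY018, -0.25 in MDA-MB468 at 2.5 µM XY018 and -0.29 with GSK805. The 12 of the membrane part and stalks, a split made after the values were seen, had -0.09, -0.24 and -0.57, and all 6 complex V subunits that were 1.5-fold lower with GSK805 belonged to it. USMG5, a small membrane subunit, was lowest of complex V in HCC70 with ATV (76.7 to 51.4 FPKM, -0.58) and with the combination (53.3 FPKM, -0.53). ATP5I was lowest there with 1.25 and 2.5 µM XY018, at -0.24 and -0.26. In MDA-MB468 with ATV complex V ran from ATP5L at -0.19 to ATP5A1 at 0.01.

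Of the members that match by name only, the 8 complex I assembly factors had medians of -0.14, -0.27 and -0.02 in the 3 comparisons at 2.5 µM. NDUFAF8 was at 20.8 FPKM in MDA-MB468 vehicle, 12.7 and 12.4 with 1.25 and 2.5 µM XY018, 21.4 with ATV and 13.6 with the combination, and at 86.7 and 46.8 without and with GSK805, log2 ratios of -0.74 at 2.5 µM XY018 and -0.89. NDUFAF4 had the lowest ratio of all members in HCC70, at 1.27, 0.84 and 0.30 FPKM with vehicle, 1.25 and 2.5 µM XY018 (-1.78, interval -3.53 to -0.87). It was also the lowest member in HCC70 vehicle that passed the floor. In MDA-MB468 it was at 5.01, 2.86 and 3.09 FPKM (-0.68), and with GSK805 at 27.0 against 24.2 (0.16). NDUFC2-KCTD14, the other member 1.5-fold lower in HCC70 at 2.5 µM XY018, was at 1.98 and 1.26 FPKM, and its interval of -2.40 to 1.03 included 0.

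COX7A2L, a factor that joins complex III to complex IV in supercomplexes, was higher where most members were lower. It was at 69.3 FPKM in MDA-MB468 vehicle, 101 and 103 with 1.25 and 2.5 µM XY018, 66.5 with ATV and 95 with the combination, and at 89.5 and 121 without and with GSK805. It was the highest member of each of these comparisons except that with ATV alone, with log2 ratios of 0.57 at 2.5 µM XY018 (interval 0.51 to 0.64) and 0.44 with GSK805 (interval 0.36 to 0.53), both short of 1.5-fold. In HCC70 it lay between 52.4 and 61.7 FPKM around a vehicle of 57.2. Its relative COX7A2, the complex IV subunit proper, had log2 ratios of -0.42 and -0.41 in the MDA-MB468 antagonist comparisons.

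The tissue-restricted isoforms and NDUFA4L2, a hypoxia-induced relative of NDUFA4, were at low levels. COX7A1 and COX6A2, the heart and muscle forms, were at or under 0.28 and 0.67 FPKM in the 12 libraries. COX6B2, the testis form, was at 2.77 FPKM in HCC70 vehicle, 4.16 in HCC70 with the combination and 0.69 in MDA-MB468 vehicle. NDUFA4L2 was at 0.92 FPKM in HCC70 vehicle, 2.42 in HCC70 with ATV and 1.00 in MDA-MB468 vehicle. In the GSK805 experiment it was at 3.20 and 4.73 FPKM without and with GSK805. COX4I2 and COX8C were not in all 3 tables. For their widely expressed partners the log2 ratios in MDA-MB468, first with 2.5 µM XY018 and then with GSK805, were 0.06 and -0.24 (COX6A1), -0.23 and -0.57 (COX8A) and -0.33 and -0.44 (NDUFA4). Of 103 symbols that matched the rule in any table, 96 were in all 3 and 6 of these fell under the floor. The nearest to it were NDUFA4L2 at 0.92 FPKM outside and NDUFAF4 at 1.27 and NDUFAF5 at 1.29 inside.

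XY018 and GSK805 can be set side by side at 2.5 µM and 24 h in MDA-MB468, each against its own vehicle, but in experiments whose tables were built on different annotations. Both gave an interval wholly below 0 for 46 of the 90 members, against 20% of all genes. Among these, ATP5G3, COX6B1, COX7B, NDUFA3, NDUFAF8 and NDUFS5 were 1.5-fold lower with both, 6 of 90 members against 4.62% of all genes. The intervals lay on opposite sides of 0 for 5 members, or 5.56%, against 13.4% of all genes. COX4I1, NDUFS7, NDUFS8 and NDUFV1 were above 0 with XY018 and below it with GSK805, and the assembly factor NDUFAF6 was below 0 with XY018 (7.93 to 6.41 FPKM) and above it with GSK805 (17.9 to 23.8 FPKM). With 1 library per condition no difference between the compounds could be tested.

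**Figure D4:**
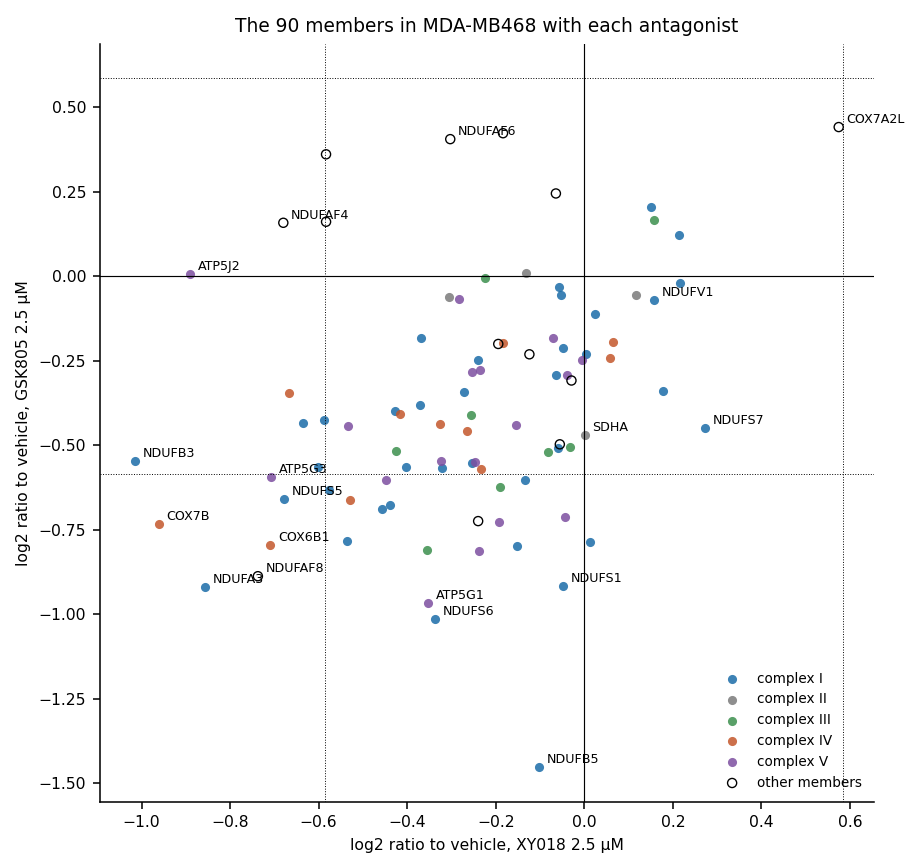
Log2 ratio of FPKM to vehicle of the 90 members in MDA-MB468 with 2.5 µM XY018 (x axis) and with 2.5 µM GSK805 (y axis), each against the vehicle of its own experiment. Points are genes. Most lie in the lower left corner, COX7A2L stands alone at 0.57 and 0.44, and NDUFB5 (-0.10 and -1.45) and ATP5J2 (-0.89 and 0.01) lie far from the diagonal.

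Set directly against 1.25 µM, 2.5 µM XY018 gave a median member log2 ratio of -0.06 in MDA-MB468, with 72 of 90 members lower at the higher dose, against 53.7% of all genes. In HCC70 the median was -0.07 and 66 members were lower, against 52.4%. The largest step down between the doses in MDA-MB468 was that of NDUFA3, at -0.44, and no member was lower by 1.5-fold, against 1.28% of all genes. In HCC70 that count was 1, NDUFAF4, against 0.787%.

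ATV alone was followed by lower subunit messages in HCC70 and by small differences in MDA-MB468. The member medians were -0.17 and -0.05, the all-gene medians -0.01 and -0.01, and 0 members were 1.5-fold lower in either line, against 0.806% and 0.413% of all genes. In HCC70, 40 members had an interval below 0, against 14.3% of all genes, and in MDA-MB468 18 had one, against 14%. Short genes in general were lower with ATV in HCC70. At or under 1164 nt, 55 subunits had a median of -0.16 there, against -0.08 for the other 985 genes. In MDA-MB468 these medians were -0.06 and -0.02. The HCC70 medians were -0.22 for complex I, -0.10 for complex II, -0.23 for complex III, -0.22 for complex IV and -0.13 for complex V. Thus ATV gave a lower median than 2.5 µM XY018 in HCC70 and a value nearer to 0 in MDA-MB468, from libraries that share a vehicle within each line.

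With both compounds, the member median was -0.21 in HCC70, with 1 member 1.5-fold lower (NDUFAF1) against 2.34% of all genes, and -0.26 in MDA-MB468, with 12 against 11.2%. Set against ATV alone, the combination had a median of -0.22 and 6 members lower in MDA-MB468, against 9.99% of all genes, and a median of -0.04 and 0 members in HCC70, against 1.75%. Set against 1.25 µM XY018 alone, the medians were -0.10 and -0.15. In HCC70 the combination lay nearer to ATV, and in MDA-MB468 nearer to XY018. At or under 1164 nt, the 55 subunits had a median to vehicle of -0.19 in HCC70 with the combination. For the other 985 genes of that length it was -0.09. Complex IV had the lowest median of the combination in MDA-MB468, at -0.48, with COX7B at -0.90.

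Respiratory chain subunits have short messages, and among all genes the ratio to vehicle was higher for longer transcripts in HCC70 with XY018 and in MDA-MB468 with GSK805. The median annotated length of the 77 subunits was 799.5 nt, against 2869 nt for all genes. Across 10395 genes Spearman's rho of length and log2 ratio was 0.18 in HCC70 with 2.5 µM XY018, -0.03 in MDA-MB468 with 2.5 µM XY018 and 0.18 with GSK805, a description in which all genes of a comparison share its 2 libraries. Over the 77 subunits alone rho was 0.11, 0.26 and 0.22. For all genes in HCC70 it was 0.12 with ATV and 0.10 with the combination. Genes were split into 10 bins of length. In the shortest bin, at or under 1164 nt, 55 subunits had a median of -0.13 in HCC70 with 2.5 µM XY018. The other 985 genes had -0.10. In MDA-MB468 the medians were -0.26 against 0.01 with XY018 and -0.52 against -0.19 with GSK805. The subunit median was near that of other short genes in HCC70 with XY018 and further below it in both MDA-MB468 comparisons. The cytosolic ribosomal proteins, whose median length was 792 nt, had medians of -0.03, 0.16 and 0.23 in the same 3 comparisons, and of 79 such genes 0, 2 and 0 were 1.5-fold lower. Of all genes, 2.35%, 13.4% and 11.1% were lower there.

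**Figure D5:**
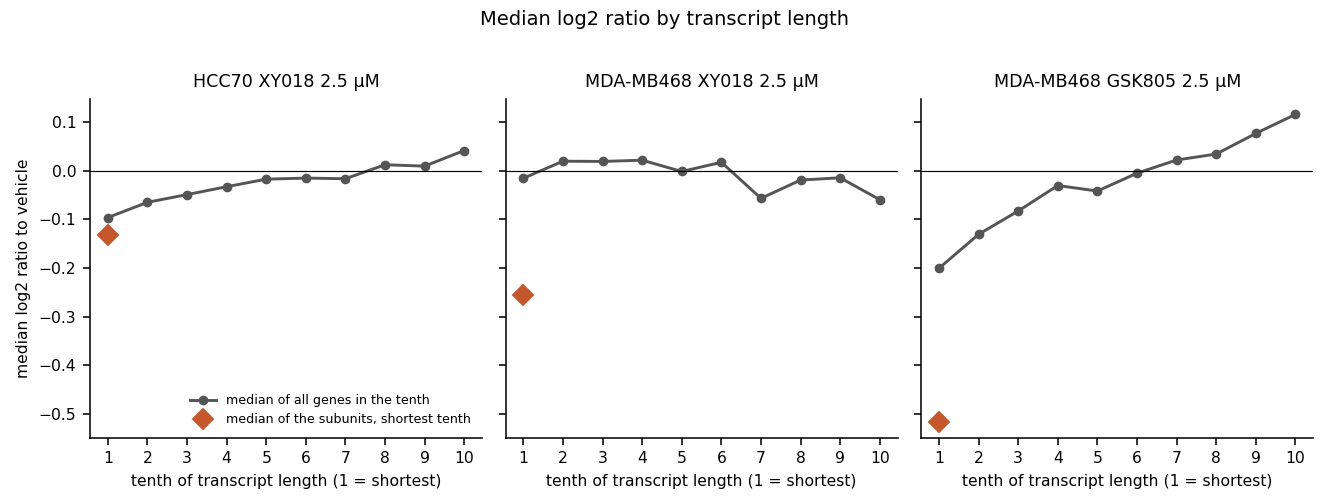
Median log2 ratio of all genes in each of 10 bins of transcript length (x axis, from shortest to longest; y axis, log2 ratio of FPKM to vehicle) for 2.5 µM XY018 in HCC70, 2.5 µM XY018 in MDA-MB468 and GSK805 in MDA-MB468, with the median of the 55 subunits of the shortest bin. The subunits' mark lies at -0.13, -0.26 and -0.52, against -0.10, -0.02 and -0.20 for all genes of that bin, subunits included.

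Promoters of respiratory chain genes are known for sites of NRF1, of ETS factors such as GABP and of YY1, general regulators of mitochondrial genes. RefSeq promoter sequences (GRCh38.p14, the 250 bases before the first listed start) were found for 76 of the 90 members. On either strand the letters of NRF1 (GCGCA, any base, GCGC) were present in 14 of 76, or 18.4%, against 5.53% of 27305 genes, CCGGAAG (ETS) in 18, or 23.7%, against 8.82%, and AANATGGCG (YY1) in 2, or 2.63%, against 1.4%. The 27305 genes are all those with a promoter sequence, whether or not they passed the floor that the members passed. The share among genes at the floor was not counted. A match is a description of the letters, not of binding. In MDA-MB468 the median log2 ratio of members with and without the NRF1 letters was -0.26 and -0.23 with 2.5 µM XY018 and -0.49 and -0.43 with GSK805, and for the ETS letters -0.21 and -0.24 with XY018 and -0.56 and -0.40 with GSK805. Promoters are shown for 4 genes whose messages were below vehicle with both antagonists at 2.5 µM in MDA-MB468. They set a promoter with NRF1 letters and one with ETS letters beside ones with no match. They lie on the plus strand at chr19:54102605-54102854 (NDUFA3), chr19:35648073-35648322 (COX6B1), chrX:77899218-77899467 (COX7B) and chr2:201071751-201072000 (NDUFB3). Capitals mark the matched letters, the NRF1 ones in NDUFA3 and the ETS ones, on the minus strand, in COX6B1.
NDUFA3: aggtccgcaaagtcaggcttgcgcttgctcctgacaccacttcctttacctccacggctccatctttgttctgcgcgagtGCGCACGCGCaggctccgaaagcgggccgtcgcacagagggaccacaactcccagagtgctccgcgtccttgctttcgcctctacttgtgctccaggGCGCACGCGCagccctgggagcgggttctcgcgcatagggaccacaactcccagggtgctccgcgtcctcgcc
COX6B1: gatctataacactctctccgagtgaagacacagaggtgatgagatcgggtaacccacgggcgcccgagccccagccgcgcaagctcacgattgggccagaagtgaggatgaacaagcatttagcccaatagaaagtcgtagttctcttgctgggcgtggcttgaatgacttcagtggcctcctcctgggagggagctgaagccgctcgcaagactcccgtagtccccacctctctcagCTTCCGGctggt
COX7B: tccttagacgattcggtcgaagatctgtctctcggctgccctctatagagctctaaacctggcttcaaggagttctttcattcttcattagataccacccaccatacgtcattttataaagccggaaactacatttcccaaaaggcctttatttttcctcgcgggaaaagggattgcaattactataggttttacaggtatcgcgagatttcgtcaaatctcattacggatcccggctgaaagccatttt
NDUFB3: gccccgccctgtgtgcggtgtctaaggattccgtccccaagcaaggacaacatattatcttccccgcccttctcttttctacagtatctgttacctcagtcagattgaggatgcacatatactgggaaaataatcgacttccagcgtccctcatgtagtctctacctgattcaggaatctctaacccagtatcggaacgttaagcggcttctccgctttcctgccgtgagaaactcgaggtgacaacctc

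Other genes of the pathway were taken from lists. The 45 further assembly factors and chaperones had median log2 ratios of -0.10, -0.15 and -0.19 in HCC70 with 2.5 µM XY018, MDA-MB468 with 2.5 µM XY018 and MDA-MB468 with GSK805. In MDA-MB468, 2 were lower and 2 higher with XY018, and 3 were lower and 1 higher with GSK805. Of all genes, 13.4% were lower and 11.7% higher with XY018, and 11.1% and 9.89% with GSK805. SDHAF1, which helps insert iron-sulfur clusters into complex II, was at 15 FPKM in vehicle and 27.4 with 2.5 µM XY018 (0.87), and ACAD9, needed for complex I assembly, was at 38.7 and 18.9 without and with GSK805 (-1.03). SDHAF4, another complex II factor, was at 4.02 FPKM in HCC70 vehicle and 1.87 with 2.5 µM XY018 (-1.06).

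The 16 electron carriers and coenzyme Q synthesis genes had medians of -0.02, 0.10 and -0.20. In MDA-MB468, 3 were lower and 2 higher with XY018 and 5 lower and 2 higher with GSK805. The shares of all genes there were 13.4% lower and 11.7% higher with XY018, and 11.1% and 9.89% with GSK805. PDSS1, which makes the side chain of coenzyme Q, was at 2.32 and 0.99 FPKM without and with 2.5 µM XY018 (-1.15), and COQ3, a methyltransferase of the same pathway, at 10.5 and 4.06 without and with GSK805 (-1.35). CYCS, cytochrome c, had log2 ratios of -0.30 in HCC70 and 0.15 in MDA-MB468 with 2.5 µM XY018 and was at 207 and 125 FPKM without and with GSK805 (-0.73). The 14 tricarboxylic acid cycle enzymes had medians of -0.06, -0.12 and -0.33, with 1 of them 1.5-fold lower, SUCLA2 with GSK805 (8.28 to 5.03 FPKM, -0.71). IDH2 was lowest with XY018 in MDA-MB468 (119 to 80.1 FPKM, -0.57) and FH in HCC70 (-0.15).

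Mitochondrial ribosomal proteins, 78 genes that translate the mitochondrially encoded subunits, had medians of -0.12, -0.15 and -0.27, with 1, 10 and 9 lower and 0, 1 and 1 higher. The counts lower were near those of all genes, of which 2.35%, 13.4% and 11.1% were lower. MRPL50 was lowest with XY018 in both lines (15.1 to 7.41 FPKM in MDA-MB468, -1.02, and 17.3 to 11.4 in HCC70, -0.59), and MRPS28 with GSK805 (61.9 to 33.8 FPKM, -0.87). Of 12 regulators of mitochondrial biogenesis, 1 was lower and 1 higher in MDA-MB468 with 2.5 µM XY018, and none passed 1.5-fold with GSK805. The shares of all genes there were 13.4% lower and 11.7% higher with XY018, and 11.1% and 9.89% with GSK805. TFAM, which packages and transcribes mitochondrial DNA, was at 9.56, 6.17, 5.10, 9.53 and 5.91 FPKM in MDA-MB468 with vehicle, 1.25 and 2.5 µM XY018, ATV and the combination (-0.89 at 2.5 µM), and at 29.3 and 24.6 without and with GSK805 (-0.25). The 3 libraries with XY018, which differ in dose and in ATV and are not replicates, were below the 2 without it. The receptor gene ESRRA was at 39.2 and 54.6 FPKM without and with 2.5 µM XY018 (0.48), NRF1 had a log2 ratio of 0.10, and the coactivator gene PPARGC1A was at or under 0.35 FPKM in all 12 libraries.

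Subunits encoded by mitochondrial DNA were listed in the GSK805 table only. Of 13 such messages, 9 were above and 4 below vehicle, with a median log2 ratio of 0.15 and a range from -0.50 (MT-CYB) to 0.43 (MT-CO1), and 0 passed 1.5-fold. Of all genes at the floor, 51.8% lay below vehicle with GSK805, 11.1% were 1.5-fold lower and 9.89% were 1.5-fold higher. In that comparison the nuclear subunits of complexes I, III, IV and V had medians of -0.45, -0.51, -0.44 and -0.44.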

How the data were processed

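The authors prepared 1 library per condition with an Illumina Tru-Seq kit, used BWA and Bowtie for mapping to GRCh37 (hg19) and Cufflinks for quantification (versions not given in the sources used here), and deposited FPKM in 3 tables normalized separately. The tables for XY018 and ATV list RefSeq genes, and that for GSK805 lists a wider annotation of gene names, so levels were compared within a table. Where a symbol had several entries, the one with the highest vehicle FPKM was kept. Of the members, 3 ATP5 genes were matched by alias and NDUFAF8 by a RefSeq synonym.

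A pseudocount of 0.1 FPKM, a floor of 1 FPKM in the 3 vehicle libraries and a 1.5-fold threshold were used, with Python 3.11.15, pandas 2.3.3, numpy 2.4.6 and scipy 1.17.1. Library depth was estimated from the spacing of low FPKM values of single-transcript genes, with 1 length offset per table chosen from 7. Lengths were those of current annotation. For COX7B and NDUFB5 these were 2444 and 4046 nt, and an interval is too narrow where the transcript counted was shorter, so none is printed for these. Both genes still entered the counts of members by interval. Other members also had long annotated lengths, such as NDUFA9 at 8356 nt and UQCRB at 4527 nt, and the same limit may hold for them. Of the members, 52 have a named pseudogene that may share reads. The scripts were tested on simulated data. Genes were named from the 4 SDH genes, the highest and lowest member of each complex in each comparison, members lower in 2 or more antagonist comparisons, isoform families, name-only matches that led a comparison, symbols under the floor and the leading gene of each other list, with PPARGC1A, ESRRA, NRF1, TFAM and CYCS. Not every highest or lowest member of a complex was named. NDUFA5, NDUFS1, NDUFS6, NDUFS8, NDUFV1, NDUFV2, COX7C, NDUFAF5 and NDUFAF6 were named after their values were seen. The members and lists were chosen with earlier results of these data known. The alternatives tried were pseudocounts of 0.01 and 1, a floor of 5 FPKM or none, rescaling to the median of all genes, subtraction of the median of genes of like length, structural subunits alone, summed entries and the other MDA-MB468 vehicle.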

Additional observations from a re-analysis of the deposited data

Results flagged for a closer look

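The ratios of NDUFA3 to vehicle had opposite signs in the 2 lines with ATV, alone or combined, whereas both were below 0 with 2.5 µM XY018 (-0.04 in HCC70 and -0.86 in MDA-MB468). With ATV the log2 ratio was 0.46 in HCC70 and -0.19 in MDA-MB468, a difference of -0.65, and with XY018 and ATV together it was 0.23 and -0.73, a difference of -0.95. In MDA-MB468 the 2 antagonists at 2.5 µM gave opposite signs for NDUFAF6, at -0.30 with XY018 and 0.41 with GSK805 (a difference of 0.71), and for NDUFS7, at 0.27 and -0.45 (a difference of -0.72). Each counting interval excluded 0. None of these differences was tested, since each condition had 1 library.

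Mitochondrial ribosomal RNA was outside the main measurement. MT-RNR2, the 16S rRNA, was at 5556 FPKM without and 11860 with GSK805, a log2 ratio of 1.09, while the 12S rRNA MT-RNR1 had -0.25. MTRNR2L genes are nuclear copies of MT-RNR2 and may share its reads. Looked at after the values were seen, 7 of them had median log2 ratios in MDA-MB468 of 1.18 and 1.27 with 1.25 and 2.5 µM XY018, 0.90 with the combination and 1.14 with GSK805, each with all 7 genes 1.5-fold higher. The shares of all genes 1.5-fold higher in these comparisons were 7.8%, 11.7%, 10.4% and 9.89%. With ATV alone the median was 0.33, and in HCC70 the medians were 0.05, 0.05, 0.08 and 0.27 with 1.25 and 2.5 µM XY018, ATV and the combination, with 0 of 7 genes past 1.5-fold. The part of mitochondrial ribosomal RNA in the FPKM of other genes was not tested.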

How the results depend on the processing

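The member medians of the 15 comparisons, and the counts lower and higher in the 9 comparisons with vehicle, were recomputed under each alternative, and the other MDA-MB468 vehicle was used for GSK805 alone. A median was taken as close while it stayed in the 95% binomial interval of the reported median over members, which share libraries, and a count while within 1.5 times. Of 267 values, 230 stayed close, 36 moved and 1 changed sign, and summing entries moved none. No paired analysis was possible because each condition had 1 library, and for the same reason no library could be left out.

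Subtracting the median of genes of like length moved the medians in HCC70 to -0.0064 with 1.25 µM XY018, -0.057 with 2.5 µM, -0.12 with ATV and -0.12 with the combination, and to -0.013 for the combination against ATV. It moved those in MDA-MB468 to -0.032 with ATV and -0.28 with GSK805, and the counts lower to 1 in HCC70 with 2.5 µM XY018 and 13 with GSK805. The median in MDA-MB468 with 2.5 µM XY018 ranged from -0.24 to -0.22 over all alternatives. Setting the median of all genes to 0 gave -0.18 for the combination in HCC70, -0.025 for it against ATV, and 1 member (COX7A2L) higher in MDA-MB468 with 2.5 µM XY018.

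The low counts in HCC70 moved by few genes. With a pseudocount of 0.01, 2 members were lower with 1.25 µM XY018, and with a pseudocount of 1, 1 was lower with 2.5 µM and 0 with the combination. With a floor of 5 FPKM, 0 were lower with 2.5 µM or the combination, and with structural subunits alone, 0 with either dose or the combination. With no floor, the counts lower in HCC70 were 2 and 4 with 1.25 and 2.5 µM XY018, 1 with ATV and 2 with the combination, and 1 in MDA-MB468 with ATV. The counts higher were then 1 in each HCC70 comparison and 3, 2, 1 and 5 in MDA-MB468 with 1.25 and 2.5 µM XY018, ATV and the combination, and 2 with GSK805. The 6 members added there were those under the floor.

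Set against the vehicle of the other MDA-MB468 experiment, from a table normalized separately, GSK805 gave a median of 0.47, with 6 members lower and 42 higher. The shares of all genes in this comparison were not counted. Between the 2 vehicles alone the median log2 ratio was already 0.95 for the members and 0.53 for all genes, so these counts include that shift. Members whose sign then changed included ATP5G3 (1.76), NDUFA3 (0.087), NDUFS5 (0.025), NDUFAF8 (1.17), NDUFB5 (0.98), NDUFS6 (0.25) and NDUFS1 (0.30). Each of these was 1.5-fold lower against its own vehicle. Members with smaller ratios also changed sign, such as NDUFB3 (36.1 FPKM in that vehicle and 41.9 with GSK805) and SDHA (98.3 and 125 FPKM). That alternative also swaps the annotation behind the vehicle values. Depth limits the genes near the floor, where the counting interval of NDUFC2-KCTD14 in HCC70 ran from -2.40 to 1.03.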
